A study of Mus musculus with 4 samples.

Results

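The cells of the spinal cord other than microglia and tissue macrophages were compared between mice homozygous for a tau transgene with the P301S substitution and transgene-negative mice at 30 weeks of age. Members were cell barcodes with at least 500 unique molecular identifiers (UMIs, counted RNA molecules), at least 200 genes, at most 15% mitochondrial UMIs, and less than 0.5% of UMIs from the complement genes C1qa, C1qb and C1qc, which microglia and tissue macrophages carry at high level. The first 3 limits kept 5738 cells of the P301S neg library and 4751 cells of the P301S hom library, and the complement limit left 4348 and 2740 members. These are 7088 of the 10489 cells of the pair of libraries, and the whole series of 4 libraries held 20454 kept cells, of which 12879 lay under the complement limit.

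Each group was 1 single-cell library, for which the cords of 2 mice were combined in a tube, so no difference between groups has a replicate check. The P301S neg group had no tau transgene and the P301S hom group was homozygous for it, and both carried wild-type CD8 (CD8 WT) at 30 weeks. The promoter of the transgene, the strain and the sexes are not given in the sources used here. Mice were perfused with saline, the cords were dissociated by enzymes with warming, and myelin was taken out with magnetic beads before cells were captured without a sort. The other homozygous libraries, CD8 WT at 33 weeks and CD8 KO at 30 weeks, are cited only for their values beside those of the main pair.

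Tau is a protein of neuronal microtubules, and the P301S substitution, known from familial frontotemporal dementia, makes it prone to form filaments. Neurons are largely lost in an enzymatic dissociation of the adult cord, so such a preparation shows mainly the cells around them. Endothelial cells form the blood barrier with tight junctions and transporters, pericytes and smooth muscle wrap the vessels, astrocytes and ependymal cells line the tissue's fluid spaces, and Schwann cells myelinate the nerve roots. Interferon gamma, made by T and NK cells, switches on a set of GTPases and antigen presentation genes in most of these types, and reactive astrocytes are known for intermediate filaments, protease inhibitors and complement.

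The pair of libraries held 42823896 and 42401255 UMIs, with medians of 5360 and 4860.5 UMIs per member once doublets were removed. A doublet caller marked 1.83% and 1.28% of kept cells, and taking these out left 4299 and 2724 cells for all values below. Few cells lay near the complement limit, with 65 and 40 cells between 0.2% and 0.5% just inside it and 53 and 65 between 0.5% and 1% just outside. The libraries shared 7 barcodes. Sex make-up differed by transcripts: the P301S neg members held 1480 cells with female and 1199 with male transcripts, and the P301S hom members held 1925 female and 0 male cells. The remaining cells were placed in neither sex, and cell types are not spread evenly over them. A pool of 2 mice with transcripts of both sexes holds 1 mouse of each, so the female and male P301S neg cells stand for 1 mouse each and are given beside the results. Sex, the single mouse and genotype cannot be told apart in the pair as a whole. A gene is called 1.5-fold higher or lower on CPM (UMIs of a gene scaled to a fixed total of all UMIs) summed over the cells of a type, where it had at least 50 UMIs in both libraries together, and "against both" means that it passed 1.5-fold against all, female and male P301S neg cells. The UMI minimum can be passed through a single library. Intervals are exact 95% intervals and cover counting error only.

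Endothelial cells made up the largest group of members in both libraries, followed by neutrophils. The P301S hom library held a larger share of T and NK cells and of the neutrophil lineage, and a smaller share of smooth muscle and B cells, and it held no oligodendrocytes at all. Capillary, arterial and venous endothelium together gave 40.3% (interval 38.8 to 41.8) of P301S neg and 35.7% (33.9 to 37.5) of P301S hom members, a ratio of 0.885 (0.817 to 0.958). When marrow and blood types other than T and NK cells were left out of the total, endothelium stood at 61.7% and 61.3%, a ratio of 0.994. All named types carried their own defining markers in both libraries, apart from oligodendrocytes in the P301S hom library and a single absent marker each in the venous, T or NK and dendritic groups. Clusters were named here from marker genes and not from an annotation by the authors, so each name stands for cells like that type. Levels of a type's own markers, such as Cldn5 and Flt1 in endothelium, are not independent of that naming.

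T and NK cells, the lymphocytes that kill or signal to other cells, numbered 46 in the P301S neg and 68 in the P301S hom library, or 1.07% (0.784 to 1.42) and 2.50% (1.94 to 3.15). Their ratio was 2.33 (1.58 to 3.47), and it was 2.62 when the other marrow and blood types were left out of the total. The other homozygous libraries stood at 3.10% at 33 weeks and 3.62% in the library labelled CD8 KO, all above the P301S neg library. Within the P301S neg library, 1.28% of cells with female and 0.667% of cells with male transcripts were of this type.

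Smooth muscle cells, the contractile coat of arteries and arterioles, stood at 2.30% (99 cells) in the P301S neg and 1.14% (31 cells) in the P301S hom library, a ratio of 0.494 (0.319 to 0.746). The 33-week library stood at 1.36% and the library labelled CD8 KO at 2.93%, so the homozygous libraries lay on both sides of the P301S neg value. Oligodendrocytes, the myelin-forming cells of the cord, numbered 18 in the P301S neg library, 13 of them female and 1 male. None was found among the 2724 cells of the P301S hom library, which allows a share of up to 0.110% and is at least 3.80-fold lower against a floor of 3 cells. With the counting error of both libraries, the upper end of the exact interval of the ratio was 0.359. The bead step takes out myelin and cells that carry it, and the libraries of 33 weeks and labelled CD8 KO held 2 and 0 such cells.

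Neutrophils, short-lived granulocytes that come from marrow and blood, stood at 13.9% and 21.4%, and their granulocyte precursors at 1.35% and 2.61%. Together the lineage had a ratio of 1.58 (1.41 to 1.76), yet neutrophils were 18.2% of the 33-week library and 7.78% of the library labelled CD8 KO. Of P301S neg cells with female and male transcripts, 3.58% and 12.9% were neutrophils. In the P301S hom library, which held no male cells, neutrophils were 9.51% of female cells but 21.4% of members. For neutrophils, shares among cells with a sex call therefore do not stand for the share in a mouse. B cells stood at 7.58% and 5.18%, a ratio of 0.683 (0.556 to 0.834), and the other homozygous libraries were lower still at 4.78% and 2.66%. Erythroid cells, the haemoglobin-making precursors of red blood cells, stood at 8.09% and 7.38%, a ratio of 0.912 that was 1.43 with only female cells, and at 14.8% and 3.19% in the other homozygous libraries. Granulocyte and erythroid precursors, cells of marrow, were present in both suspensions. All marrow and blood types other than T and NK cells together made up 34.6% and 41.8% of members.

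Pericytes, which share the vessel wall with endothelium, stood at 2.23% and 2.09%, and fibroblasts at 0.837% and 1.25%. Astrocytes stood at 1.0002% and 1.25%, ependymal cells at 3.35% and 3.56%, oligodendrocyte precursors at 1.05% and 1.40% and Schwann cells at 0.814% and 1.47%. For glia as a group the ratio was 1.16 (0.963 to 1.39), an interval that includes 1. Clusters with markers of more than one type, mainly pericyte or smooth muscle with endothelium, were left unnamed, with 11.7% and 7.78% of members. The smooth muscle cells above were taken out of these clusters by a finer clustering and are not counted in that share. A single cluster of these, with neutrophil and smooth muscle genes together, held 113 P301S neg cells and 0 P301S hom cells.

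**Figure D1:**
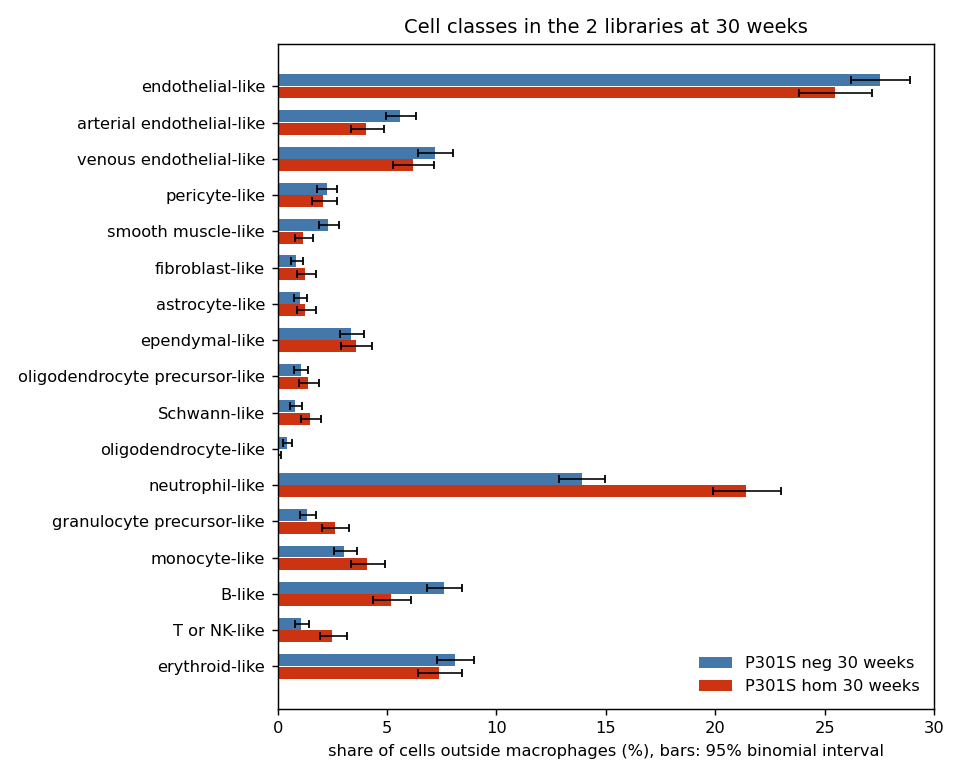
Share of members (percent of cells under the complement limit, doublets removed) for each cell type in the P301S neg and P301S hom libraries, with exact 95% intervals that cover counting error only. T or NK cells stand at 1.07% and 2.50%, and smooth muscle at 2.30% and 1.14%.

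Apoe, the gene of apolipoprotein E (ENSMUSG00000002985, chr7:19696109-19699188, mm10), was used to follow RNA that leaks from microglia and is captured with other cells. In the C1q-high cells Apoe stood at 1279.7 CPM in the P301S neg and 48872 CPM in the P301S hom library. Types that are not known to make it showed low levels in the first library and more in the second: 27.4 and 427 CPM in neutrophils, 72.6 and 496 in B cells, 80.2 and 478 in T and NK cells and 30.9 and 289 in erythroid cells. For these types and the granulocyte precursors, the P301S hom level was 0.542% to 1.01% of the level in C1q-high cells. In the P301S neg library it was 2.14% to 6.27%. The summed C1q genes in the same types stood at 0.109% to 0.598% of the C1q-high level in the P301S neg and 0.273% to 0.499% in the P301S hom library. Apoe and C1q thus gave unlike measures of captured RNA, above all in the P301S neg library. Spp1, the osteopontin gene of activated microglia, moved with it: 0.582 CPM in P301S neg endothelium against 36.3 CPM in P301S hom endothelium, and 51.9 against 133 CPM in neutrophils. The summed C1q genes were 49.8 and 106 CPM in endothelium.

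Glia and endothelium carried Apoe above those types in both libraries, so their own Apoe and captured RNA add up. Astrocytes, a main source of apolipoprotein E in the central nervous system, stood at 7512 CPM in the P301S neg and 28537 CPM in the P301S hom library, while Schwann cells stood at 4690.1 and 5214 CPM. Endothelium stood at 980.5 and 1169.6 CPM, ependymal cells at 1931 and 1634 CPM, and oligodendrocyte precursors at 2128 and 1609.8 CPM. The expected microglial share of a gene was its level in C1q-high cells times the ratio of Apoe in the type to Apoe in C1q-high cells, which counts a type's own Apoe as microglial and so errs high. Genes named by rule below had an expected microglial share under 25% of their higher level. The share was taken in the library where the gene was higher, so the 2 directions were not screened alike. In endothelium the Apoe ratio was 76.6% in the P301S neg library, used for lower genes, and 2.39% in the P301S hom library, used for higher ones.

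**Figure D2:**
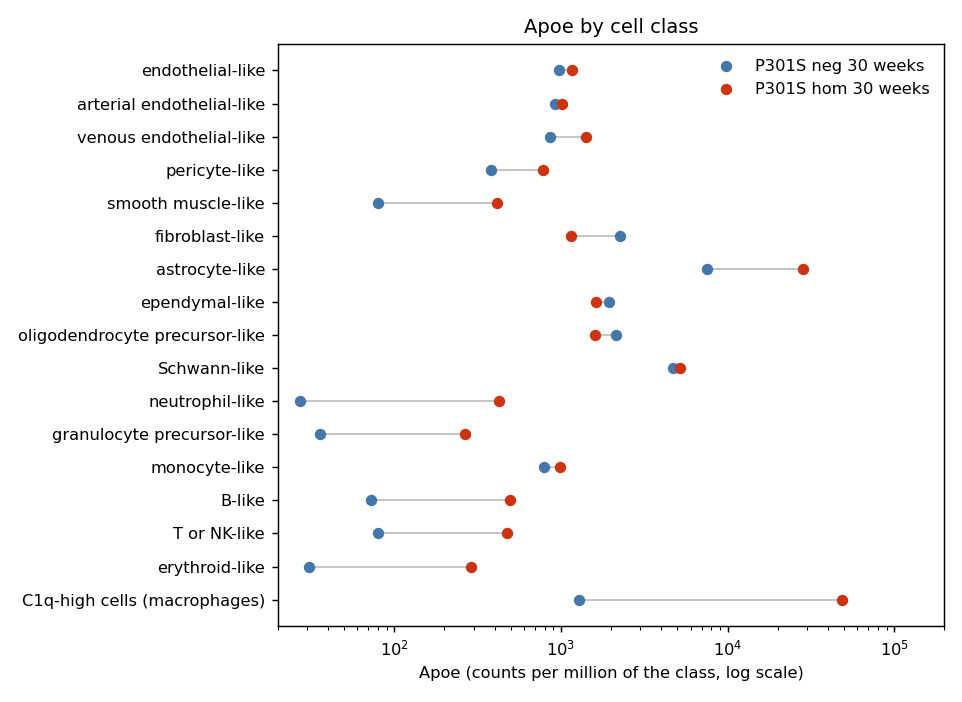
Apoe level (CPM, log axis) summed over the cells of each type in the P301S neg and P301S hom libraries, with the C1q-high cells of the same libraries for comparison. Neutrophils, granulocyte precursors, B, T or NK and erythroid cells lie between 27.4 and 80.2 CPM in the P301S neg library and between 265 and 496 CPM in the P301S hom library.

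Astrocytes of the P301S hom library carried far more of the genes that mark their reactive state. Of 26 genes of a reactive astrocyte list, 10 had enough UMIs, and 8 of them were at least 1.5-fold higher and 2 lower, with a median log2 ratio of 3.38 against 0.02 for all 1174 genes measured in this type. The background was high, with 27.8% of measured genes called higher and 26.3% lower, on 43 and 34 cells. All 8 higher members also passed against both the female and the male P301S neg cells (20 and 6 cells), where the background was 18.1%. Genes such as Serpina3n and Timp1, with no UMI in P301S neg astrocytes, passed the UMI minimum only through the P301S hom library. The count and median therefore lean on genes admitted by the library in which they are high. With a minimum of 20 UMIs the median was 2.61.

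Gfap (ENSMUSG00000020932, chr11:102887336-102900912), the intermediate filament protein that defines reactive astrocytes, stood at 275 CPM (206 to 359.9) in the P301S neg library and 5591 CPM (5256 to 5942) in the P301S hom library, 20.3-fold higher (15.4 to 27.3). The 33-week library and the library labelled CD8 KO stood at 5643 and 4721 CPM, so the 3 homozygous libraries lay together and far above the P301S neg one. Female and male P301S neg cells stood at 93.9 and 180.5 CPM. Gfap UMIs came from 21 of 43 P301S neg and 33 of 34 P301S hom astrocytes. Vim, another intermediate filament gene, stood at 753 and 3921 CPM, and Hspb1, a small heat shock protein of reactive glia, at 613 and 3269.5 CPM.

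Serpina3n (ENSMUSG00000021091, chr12:104406729-104414329), a secreted serine protease inhibitor, had no UMI in P301S neg astrocytes and 177 UMIs, or 953 CPM, in those of the P301S hom library, at least 61.2-fold higher against a floor of 3 UMIs. Timp1 (ENSMUSG00000001131, chrX:20870166-20874735), an inhibitor of matrix metalloproteinases, likewise had none against 186 UMIs (1002 CPM), at least 64.3-fold higher, although 1 cell held 42.5% of them. The 33-week library and the library labelled CD8 KO stood at 950.2 and 744 CPM for Serpina3n and at 469 and 459.9 CPM for Timp1. Cd44, a hyaluronan receptor, stood at 25.96 CPM in the P301S neg and 733 CPM in the P301S hom library.

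Complement components were among the genes farthest apart. C3 (ENSMUSG00000024164, chr17:57203970-57228136), the central complement protein, had 3 UMIs (15.6 CPM, 3.21 to 45.5) in the P301S neg and 418 UMIs (2252 CPM, 2041 to 2478) in the P301S hom astrocytes, a ratio of 145 (49.1 to 704). C4b (ENSMUSG00000073418, chr17:34728380-34743882), of the classical pathway, had 3 and 137 UMIs, or 15.6 and 738 CPM, a ratio of 47.4 (15.9 to 233), and its reads cannot be told fully from its near copy C4a. At 33 weeks C3 stood at 1674 CPM and in the library labelled CD8 KO at 1839.7 CPM. The expected microglial share of C3 and C4b in the P301S hom astrocytes was 0.712% and 0.0848%. Clu, the lipid carrier clusterin, stood at 1137 and 9604 CPM, and the metal-binding Mt1 and Mt2 at 3172 and 358 CPM in the P301S neg and 27885 and 4109.8 CPM in the P301S hom library.

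The P301S neg astrocytes also held RNA of other cells. The 8 endothelial markers summed to 7891 CPM in them and 53.9 CPM in the P301S hom astrocytes, with Cldn5, Cdh5, Flt1, Slco1a4 and Egfl7 at 0 in the latter, and the 9 neutrophil markers summed to 13756 and 2548 CPM. The 7 erythroid markers summed to 22395 and 404 CPM. Own markers did not all follow: Aqp4, the water channel of astrocyte endfeet, stood at 809.8 and 5155 CPM, Slc1a2, the glutamate transporter, at 2232 and 2505 CPM, and Slc6a11, a GABA transporter, at 862 and 329 CPM. Without cells that carried endothelial or neutrophil markers, the endothelial sum was 75.7 and 49.1 CPM and the erythroid sum 28201 and 409 CPM, Gfap was 454 and 5660.3 CPM, and the median log2 ratio of the reactive list was 5.22. The immediate early genes, switched on by cell stress and lower in P301S hom astrocytes with a median log2 ratio of -5.21, stood at -1.37 without those cells. Lcn2 and Srgn, the lower members of the reactive list, are abundant in neutrophils and other blood cells, and stood at 275 and 399.7 CPM in the P301S neg and 64.6 and 16.2 CPM in the P301S hom library.

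**Figure D3:**
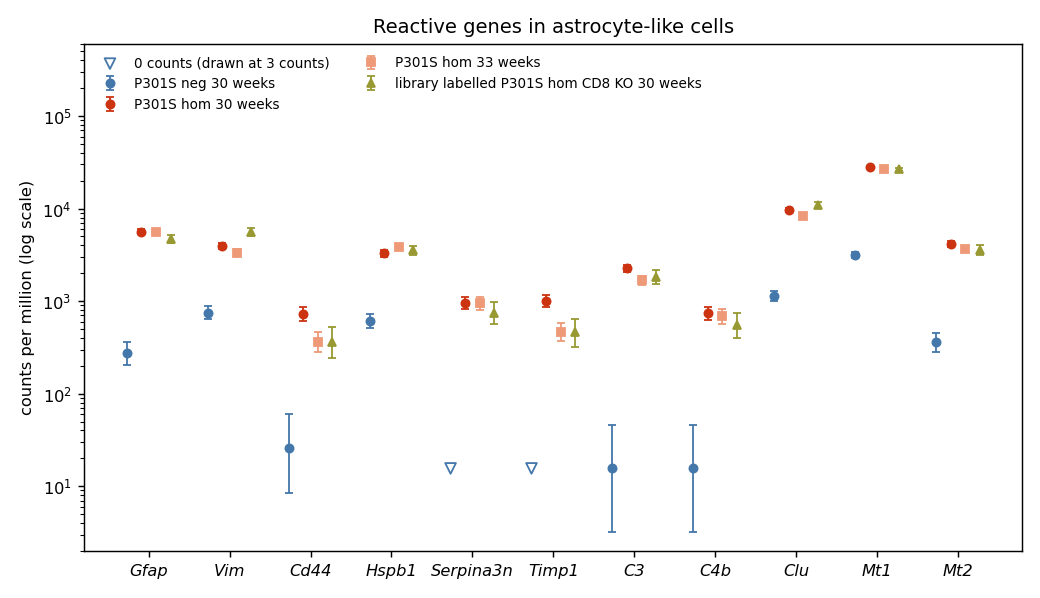
Levels (CPM, log axis) of reactive astrocyte, complement, clusterin and metallothionein genes summed over astrocyte-like cells in each library, with exact 95% Poisson intervals that cover counting error only and open triangles for genes with no UMI, drawn at 3 UMIs. Gfap stands at 275 CPM in the P301S neg library and between 4721 and 5643 CPM in the 3 homozygous libraries.

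Capillary-like endothelial cells, the largest type with 1183 and 694 cells, carried less interferon gamma response RNA in the P301S hom library. Of 22 listed genes 17 were measured, and 14 were at least 1.5-fold lower and none higher, with a median log2 ratio of -1.14 against -0.04 for all 9575 measured genes. The background was 5.47% of measured genes lower and 2.70% higher. The P301S neg mice stood apart in these genes: the median was -0.12 against its female cells and -1.87 against its male cells, and 0 of the genes passed against both, where 2.17% of all genes did. Between those mice, 15.7% of all genes differed 1.5-fold in endothelium.

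The promoters of 2 genes that lead this list are shown because they carry, close together, both motifs through which interferon signals reach DNA. Sequences are the 200 bases before the RefSeq start site on GRCm38.p6, 5′ to 3′ on the strand of the gene, with matches in capitals.
Igtp, chr11:58199356-58199555 (plus strand): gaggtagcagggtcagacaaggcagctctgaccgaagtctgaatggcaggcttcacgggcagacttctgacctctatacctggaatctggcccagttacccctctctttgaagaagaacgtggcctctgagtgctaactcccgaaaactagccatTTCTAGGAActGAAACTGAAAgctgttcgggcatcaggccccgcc
Tgtp2, chr11:49064213-49064412 (minus strand): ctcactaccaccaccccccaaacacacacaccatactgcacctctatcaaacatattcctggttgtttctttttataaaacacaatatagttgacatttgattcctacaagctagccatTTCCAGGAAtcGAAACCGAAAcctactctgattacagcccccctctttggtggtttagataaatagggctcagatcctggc
The capitals are the STAT motif TTCNNNGAA followed by the interferon-stimulated response element (GAAA, any 2 bases, GAAA), both searched on both strands over 250 bases before to 50 after the start. Of 32851 promoters in the table, 8.30% hold the first and 3.44% the second. Ifi47 holds neither match in its window.

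Igtp (ENSMUSG00000078853, chr11:58199556-58207591), an immunity-related GTPase, stood at 225 CPM (214 to 236) in P301S neg and 50.3 CPM (43.2 to 58.2) in P301S hom endothelium, 4.47-fold lower (3.83 to 5.24). Female P301S neg cells stood at 52.6 CPM and male ones at 455 CPM, and the P301S hom level lay beside the female value. The 33-week library and the library labelled CD8 KO, the first with cells of both sexes and the second with male cells, stood at 43.4 and 49.7 CPM. Tgtp2, a T-cell-specific GTPase that shares reads with its near copy Tgtp1, stood at 14.7 and 2.51 CPM. Gbp4 (ENSMUSG00000079363, chr5:105115767-105139586), a guanylate-binding protein, stood at 58.5 CPM in female P301S neg, 377 in male P301S neg and 54.8 in P301S hom cells. Ifi47 (ENSMUSG00000078920, chr11:49076587-49096974), another GTPase, stood at 60.2, 219 and 41.4 CPM in the same order. Irf1, a transcription factor of the pathway, stood higher at 144 and 189 CPM, under the 1.5-fold limit.

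Antigen presentation genes of MHC class I, whose products show peptides to CD8 T cells, were lower as well. All 14 listed genes were measured, 11 were lower and none higher, with a median log2 ratio of -0.85, of -0.25 against female and of -1.39 against male P301S neg cells. H2-K1, a class I heavy chain, stood at 2745 CPM in P301S neg and 1495 CPM in P301S hom cells, and at 1665 and 4113 CPM in female and male P301S neg cells. B2m, the light chain, stood at 1813 and 1146 CPM. H2-Q7, a non-classical chain whose reads overlap those of H2-Q6, stood at 407 and 124 CPM, with 167 CPM in female P301S neg cells.

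The heat shock list, chaperones that cells make when proteins unfold, showed the same split by mouse with a change of sign. All 13 genes were measured and 10 were lower, with a median log2 ratio of -0.72, but the median was 0.34 against female and -1.39 against male P301S neg cells. Hspa1a, the inducible HSP70, stood at 215 CPM in female and 2645 CPM in male P301S neg cells, and at 477 CPM in P301S hom cells, between those mice. Its reads overlap those of the near copy Hspa1b. Hsph1, a co-chaperone of HSP70, stood at 14.6, 199 and 21.8 CPM in the same order. The Hspa1a promoter is printed for the heat shock element GAANNTTC in capitals, which 7.86% of all promoters hold.
Hspa1a, chr17:34972157-34972356 (minus strand): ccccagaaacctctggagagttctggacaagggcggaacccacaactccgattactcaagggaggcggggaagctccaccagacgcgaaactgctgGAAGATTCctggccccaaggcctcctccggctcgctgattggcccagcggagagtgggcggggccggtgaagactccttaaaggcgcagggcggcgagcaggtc

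**Figure D4:**
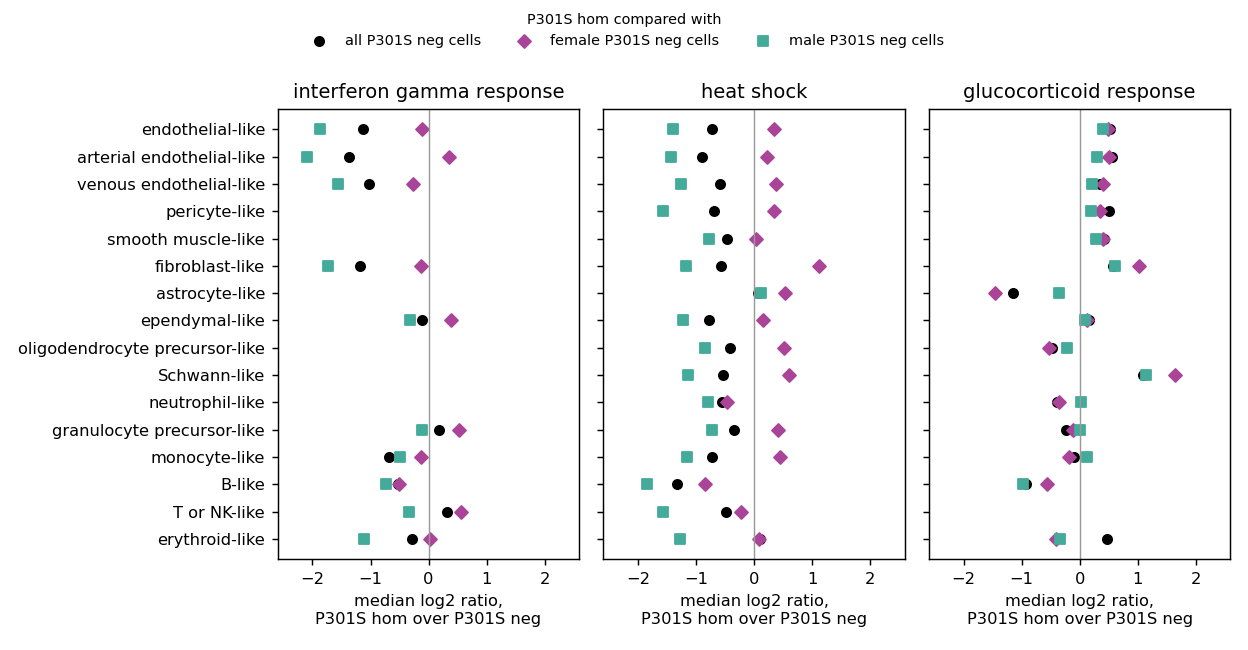
Median log2 ratio of P301S hom over P301S neg cells for gene lists in each cell type, with the same median against only the female and only the male P301S neg cells. The endothelial interferon gamma list stands at -1.14 against all, -0.12 against female and -1.87 against male P301S neg cells.

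Glucocorticoid response genes were higher in P301S hom endothelium against either P301S neg mouse. Of 17 listed genes 15 were measured, 6 were higher and none lower, with a median log2 ratio of 0.53, of 0.49 against female and of 0.41 against male cells. Of these, 4 passed against both, where the background was 1.47%. Glucocorticoids are the steroid hormones of stress and of the daily cycle, and their receptor binds the DNA of these genes.

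Map3k6 (ENSMUSG00000028862, chr4:133240818-133252929), a stress kinase gene, stood at 52.3 CPM (47.003 to 57.97) in P301S neg and 134 CPM (122 to 147) in P301S hom endothelium, 2.57-fold higher (2.23 to 2.95). Female and male P301S neg cells stood at 39.4 and 77.6 CPM and the other homozygous libraries at 117 and 132 CPM, so the 3 homozygous libraries were above both P301S neg mice. Fkbp5 (ENSMUSG00000024222, chr17:28399094-28517527), a chaperone that restrains the glucocorticoid receptor, stood at 3.35 and 11.2 CPM on 23 and 40 UMIs, 3.34-fold higher (1.95 to 5.84), and at 31.6 and 24.9 CPM in the other homozygous libraries. Tsc22d3, which encodes the glucocorticoid-induced leucine zipper, stood at 599 and 1044 CPM, with 601 and 605 CPM in female and male P301S neg cells. Mt2, a metallothionein, stood at 188 and 320.2 CPM, Zbtb16, a transcription factor, at 57.8 and 97.8 CPM, and Cdkn1a, a brake on the cell cycle, at 1169.8 and 1788 CPM. Sgk1, a kinase of the same list, did not follow at 477 and 434 CPM. Of the clock genes, which glucocorticoids and the hour of collection both move, Dbp was lower at 44.8 and 20.1 CPM and Per1 stood at 54.6 and 74.3 CPM, and the hour of collection is not given in the sources used here.

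The promoters of Map3k6 and of the metallothionein gene Mt1 are shown for the glucocorticoid receptor motif ACANNNTGT, in capitals, which 6.85% of all promoters hold.
Map3k6, chr4:133240618-133240817 (plus strand): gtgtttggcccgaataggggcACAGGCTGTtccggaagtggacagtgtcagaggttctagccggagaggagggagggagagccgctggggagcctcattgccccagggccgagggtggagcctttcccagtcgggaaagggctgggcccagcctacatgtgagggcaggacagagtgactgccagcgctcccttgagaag
Mt1, chr8:94178889-94179088 (plus strand): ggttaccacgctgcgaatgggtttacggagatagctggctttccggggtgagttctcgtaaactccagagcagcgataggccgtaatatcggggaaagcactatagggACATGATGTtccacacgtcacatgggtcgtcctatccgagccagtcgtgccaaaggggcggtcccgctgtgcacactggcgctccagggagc
Mt1 itself stood at 1002 and 1443 CPM in endothelium, 1.44-fold higher (1.39 to 1.49) and just under the limit. Fkbp5, Tsc22d3, Mt2 and Dusp1 hold no match in their windows.

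Barrier genes differed little. All 18 listed tight junction and transporter genes were measured, and 0 were 1.5-fold higher and 0 lower, with a median log2 ratio of -0.07. Cldn5, the main claudin of the barrier, stood at 3401 and 2633 CPM, Ocln, occludin, at 276 and 283 CPM and Abcb1a, the drug efflux pump P-glycoprotein, at 808 and 797 CPM. Slc2a1, the glucose transporter GLUT1, stood at 3736 and 5189.7 CPM, 1.39-fold higher (1.36 to 1.42), with 5352 and 5577 CPM in the other homozygous libraries. Adhesion genes that leukocytes use were near equal as well, with a median log2 ratio of 0.01 over 9 measured genes and Icam1 at 209 and 207 CPM.

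Nrp1 and Kdr, receptors of vessel growth, were lower. Of 14 measured genes of the angiogenesis list, 3 were 1.5-fold lower, 2 of them against both, and none higher, where 5.47% of all measured genes were lower and 2.17% against both. Nrp1 (ENSMUSG00000025810, chr8:128358604-128503363), a co-receptor for VEGF, stood at 267 CPM (255 to 279.8) in P301S neg and 144 CPM (132 to 157) in P301S hom cells, 1.86-fold lower (1.68 to 2.05). Its level was 284 and 238 CPM in female and male P301S neg cells and 154 and 149.7 CPM in the other homozygous libraries, so the 3 homozygous libraries were below both P301S neg mice. Kdr (ENSMUSG00000062960, chr5:75932827-75978458), the main VEGF receptor, showed the same order, with 446 and 449 CPM in female and male P301S neg cells, 267 CPM in P301S hom cells and 241 and 265 CPM in the other homozygous libraries. Flt1, a VEGF receptor that acts mostly as a decoy, differed little at 3388 and 3513 CPM, and Tek, the angiopoietin receptor, at 253 and 274 CPM.

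The genes farthest apart in endothelium by the naming rule were Litaf, Plaur, Tmcc3 and Map3k6 on the higher side and Lrrn3, Ifi47, Cd300lg and Spaar on the lower side. Litaf (ENSMUSG00000022500, chr16:10959275-11066157), a late endosomal membrane protein, stood at 34.8 CPM in P301S neg and 109.5 CPM in P301S hom cells, 3.15-fold higher (2.67 to 3.71), with 61.1 and 91.04 CPM in the other homozygous libraries. Plaur, the urokinase receptor, stood at 122 and 323 CPM, and Tmcc3 at 141 and 354 CPM. Female and male P301S neg cells stood at 83.5 and 179 CPM for Plaur and at 161 and 126 CPM for Tmcc3, so both genes were above both mice at 30 weeks, while Plaur at 33 weeks was not, at 166 CPM. Lrrn3, a leucine-rich repeat membrane protein, stood at 98.9 and 24.6 CPM, 4.02-fold lower (3.22 to 5.08), with 126 and 66.3 CPM in female and male P301S neg cells and 45.9 and 30.6 CPM in the other homozygous libraries. Spaar, a small lysosomal regulator of growth signalling, stood at 60.7 and 25.1 CPM, and Cd300lg, an adhesion molecule of capillaries, at 21.99 and 7.26 CPM.

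**Figure D5:**
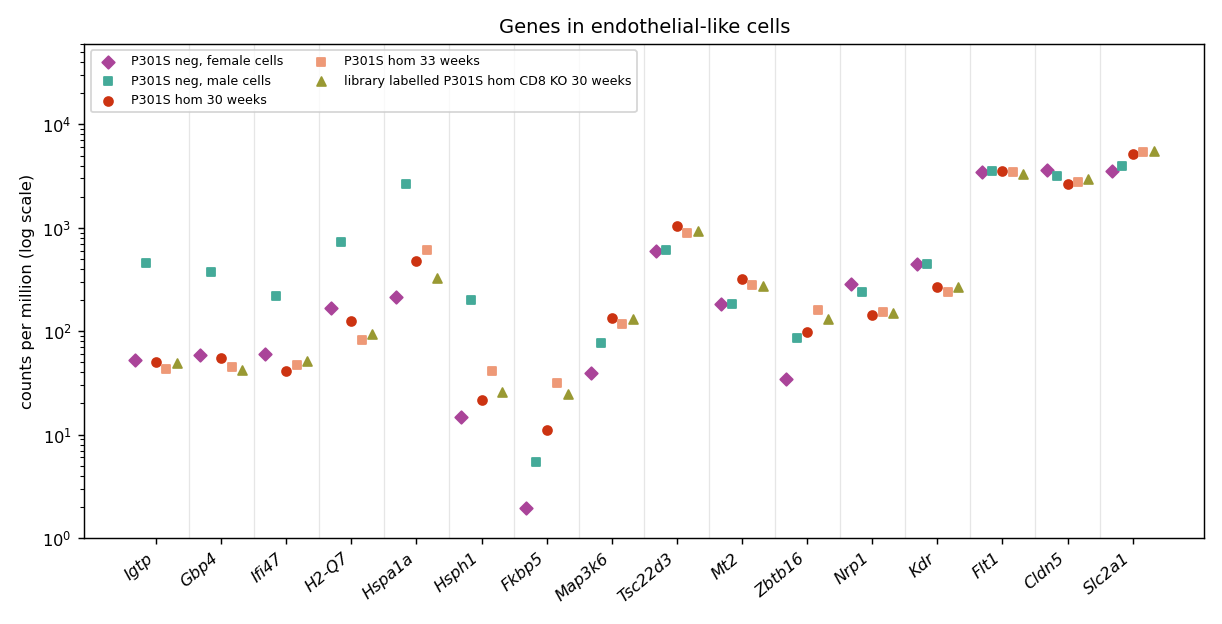
Levels (CPM, log axis) of interferon, heat shock, glucocorticoid and angiogenesis genes summed over capillary-like endothelial cells, shown for female and male P301S neg cells and for each homozygous library, without intervals. Igtp is at 52.6 CPM in female and 455 CPM in male P301S neg cells, while Map3k6 and Nrp1 separate the homozygous libraries from both.

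Arterial and venous endothelium, with 241 and 110 and with 309 and 168 cells, were also lower for interferon gamma genes and higher for glucocorticoid genes. In arterial cells the interferon gamma list had 15 of 18 measured genes lower against a background of 6.76%, with a median log2 ratio of -1.37 that was 0.35 against female and -2.09 against male P301S neg cells. Ifi47 stood at 85.4 CPM in female P301S neg, 441 in male P301S neg and 38.96 in P301S hom arterial cells, and Gbp2, a guanylate-binding protein, at 144, 527 and 90.9 CPM. Zbp1, a sensor of viral nucleic acid, stood at 56.8 and 8.66 CPM. The glucocorticoid list had 7 of 14 measured genes higher, with a background of 4.40%, and 3 against both, with one of 2.30%. Mt2 stood at 35.5 and 113 CPM and Tsc22d3 at 559 and 893 CPM in arterial cells.

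Hrct1, which encodes a small predicted membrane protein and was named by rule, stood at 213 CPM in P301S neg and 72.5 CPM in P301S hom arterial cells, with female and male P301S neg cells alike at 217 and 189 CPM. The genes farthest on the higher side of arterial cells rested on single cells. Single P301S hom cells, 2 in all, held 100% of the UMIs of Nts (neurotensin), 98.1% of Igfbp5 (a growth factor binding protein), 86.7% of Fabp4 (a fatty acid carrier) and 69.2% of Fxyd6 (a regulator of the sodium pump).

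In venous cells 15 of 17 measured interferon gamma genes were lower, 3 against both, with backgrounds of 6.31% and 2.88%. Venules are where leukocytes leave the blood, and 5 of 14 measured adhesion genes were lower, 3 against both, and 1 higher. Selp (ENSMUSG00000026580, chr1:164115264-164150026), P-selectin, on which leukocytes roll, had 64 UMIs in 8 P301S neg cells and none in P301S hom cells, at least 9.53-fold lower against a floor of 3 UMIs. It stood at 0 CPM at 33 weeks and 29.4 CPM in the library labelled CD8 KO, against 28.8 and 4.88 CPM in female and male P301S neg cells. Ackr1, a chemokine-binding receptor of venules, stood at 105 and 27.8 CPM but at only 16.02 CPM in male P301S neg cells. Vcam1, a ligand of leukocyte integrins, stood at 519 and 334 CPM, while Icam1 differed little at 1963 and 1835 CPM. Selp, Ackr1 and Icam1 also served as markers of the type. At the finer clustering only 128 P301S neg and 50 P301S hom cells were named venous, in a cluster led by Vcam1. The venous values may thus compare unlike proportions of such cells, and the part of this in them was not tested.

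MHC class II genes, which present peptides to CD4 T cells, were lower in venous cells for all 4 measured members. Cd74, the invariant chain, stood at 119 CPM in P301S neg and 14.2 CPM in P301S hom cells, with 58.2 and 199.9 CPM in female and male P301S neg cells and 99.3 CPM at 33 weeks. These genes are also abundant in microglia of the homozygous cord. Their expected microglial share was taken in the P301S neg library, where they were higher, and lay above their whole level. That estimate counts endothelial Apoe as microglial. Venous Apoe was 67.3% of the C1q-high level in the P301S neg and 2.91% in the P301S hom library. Of the glucocorticoid list 5 of 15 measured genes were higher, 4 against both, against backgrounds of 2.98% and 1.52%. Fkbp5 stood at 10.3 CPM (7.32 to 14.1) in P301S neg and 40.8 CPM (31.7 to 51.6) in P301S hom venous cells, with 58.1 and 61.6 CPM in the other homozygous libraries. C4b, the complement gene that was high in astrocytes, stood at 7.39 and 46.1 CPM, and Scgb3a1, a secreted protein, at 18.2 and 57.3 CPM. Cyp2e1, an enzyme of xenobiotic oxidation, stood at 126 and 34.9 CPM. Csf3, the growth factor of neutrophils, had 90 UMIs from 9 P301S neg cells, 46.7% of them in 1 cell, and 4 in the P301S hom library, or 23.7 and 2.36 CPM. The library labelled CD8 KO stood above both at 31.3 CPM and the 33-week library at 9.69 CPM. Egr4, an immediate early gene, had 199 and 1 UMIs.

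Pericytes and smooth muscle, the cells that wrap vessels, gave values that rest on few cells. Of 2280 genes measured in 96 and 57 pericytes, 6.75% were higher and 5.57% lower, and 2.59% and 2.06% against both. All 3 measured genes of cholesterol supply were lower, 2 against both. Fdps, an enzyme of the pathway, stood at 163 CPM (125 to 209) and 50.9 CPM (26.3 to 88.9). Synm, an intermediate filament of muscle-like cells, stood at 48.03 and 212 CPM and Surf1, an assembly factor of respiratory complex IV, at 117 and 38.2 CPM. Ccl2, a chemokine for monocytes, was high in P301S hom pericytes through 1 cell that held nearly all of its UMIs. The 8 endothelial markers summed to 6911 and 7322 CPM in pericytes, and to 242 and 187 CPM without cells of mixed markers. Leaving those cells out kept 73 and 36 pericytes, with 177781 of 374744 and 80362 of 235724 UMIs. Most UMIs behind the pericyte values thus came from cells of mixed markers, and levels of the genes above without them are not given here.

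In smooth muscle, 99 and 31 cells gave 6.01% of 2579 measured genes higher and 8.18% lower, with 3.26% and 3.92% against both. Mt1 stood at 1320.2 and 2016 CPM, and 3 of 9 measured glucocorticoid genes were higher, 2 against both. Trim8, a ubiquitin ligase, had 47 and 3 UMIs, or 70.996 and 16.1 CPM, and Igfbp4, a growth factor binding protein, stood at 48.3 and 209 CPM with 51.3% of the latter in 1 cell. Neutrophil markers moved between these libraries too, at 1969.8 and 14056 CPM, or 152 and 139 CPM without cells of mixed markers, and their part in other smooth muscle values was not tested.

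Fibroblasts of the P301S hom library carried more collagen RNA, on 36 and 34 cells. Of 16 measured matrix genes 8 were higher and 2 lower, 6 and 1 against both, with backgrounds of 11.2% and 18.4% against all and 7.23% and 11.4% against both. Col1a1, a chain of the main fibrillar collagen, also served as a marker of the type. Its level was 518 CPM (447 to 598) and 1452 CPM (1301 to 1617), with 1469 and 1175 CPM in the other homozygous libraries. Col6a2, of microfibrillar collagen, stood at 329.8 and 1178 CPM, while Col4a1, of basement membranes, stood at 266 and 204 CPM. The P301S neg fibroblasts held endothelial markers at 5967 CPM against 569.6 CPM, with Cldn5, Pecam1, Flt1, Slco1a4 and Egfl7 at 0 in the P301S hom cells, and without cells of mixed markers the matrix median went from 0.60 to 0.23 and Col1a1 to 779 and 1452 CPM. Single P301S hom cells held 72.9% of the UMIs of Vcan, a matrix proteoglycan, and 55.1% of Sparc, a collagen-binding protein. Ptgds, the prostaglandin synthase of meningeal cells, stood at 58.2 and 465 CPM. Mt1 and Mt2 were higher in fibroblasts as well, at 1014 and 108 CPM in P301S neg and 2518 and 422 CPM in P301S hom cells.

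Ependymal cells, which line the central canal, carried a little more of a few reactive genes. Of 7951 measured genes 2.99% were higher and 3.90% lower, on 144 and 97 cells. Of the reactive astrocyte list 3 of 12 measured genes were higher, all against both, and 2 lower, where 1.14% and 1.66% of all genes passed against both. Gfap stood at 54.8 CPM (45.3 to 65.7) and 93.5 CPM (78.2 to 111), with 54.9 and 56.6 CPM in female and male P301S neg cells and 120.3 and 122 CPM in the other homozygous libraries. Serping1, the inhibitor of the first complement step, stood at 10.4 and 26.9 CPM, with 27.6 and 33.3 CPM in the other homozygous libraries. Both genes were above both P301S neg mice in every homozygous library, at levels far under those of Gfap in astrocytes. Il6, an inflammatory cytokine, stood at 60.9 and 138 CPM in ependymal cells and Rnd1, a small GTPase, at 62.3 and 20.5 CPM. Hmgcs1, an early enzyme of cholesterol synthesis, stood at 98.2 and 48.2 CPM. The heat shock median was -0.77 against all, 0.16 against female and -1.23 against male P301S neg cells, the pattern seen in endothelium.

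Oligodendrocyte precursors, the dividing cells that renew oligodendrocytes, had lower levels of some immediate early genes. Of 14 measured genes 5 were lower, all of them against both, with a background of 4.75% lower and 2.15% against both, beside 3.31% higher against both. Btg2, an early gene that slows division, stood at 1738 CPM (1568 to 1923) and 737 CPM (629 to 857), with 1956 and 2269 CPM in female and male P301S neg cells and 1346 and 937 CPM in the other homozygous libraries. Klf4, a transcription factor, stood at 844 and 410.2 CPM, and Jun, a subunit of AP-1, at 5949 and 4027 CPM, while Fos, its partner, was near equal at 8422 and 8587 CPM. Neutrophil markers summed to 12078 CPM in P301S neg and 212 CPM in P301S hom precursors. Without cells of mixed markers that sum was 199 CPM in the former, Btg2 stood at 1799 and 737 CPM, and the median log2 ratio of the early genes went from -0.46 to -0.50. A finer clustering put 21 P301S neg and 7 P301S hom precursors in a group of low depth, with a median over all 4 libraries of 1028 UMIs against 6916 for the other 24 and 31. Early genes are known to respond to warm dissociation, and the part of the preparation or of that group was not tested. Cnp, an early enzyme of myelin, stood at 303 and 525 CPM, Chd7, a chromatin remodeller of the lineage, at 82.6 and 198 CPM, and Cp, the copper oxidase ceruloplasmin, at 197 and 88.2 CPM.

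Schwann cells of the P301S hom library stood higher for glucocorticoid and early response genes. Of 7 measured glucocorticoid genes 6 were higher and 3 against both, with backgrounds of 8.99% and 3.46%, beside 7.61% lower and 0.692% against both. Mt1 stood at 2351 CPM (2043 to 2692) and 5659.8 CPM (5271 to 6069), with 6151 and 5789.6 CPM in the other homozygous libraries, and Dusp1, a phosphatase that ends kinase signals, at 349 and 1027 CPM. Of 17 measured early genes 10 were higher, 4 against both, and Fos stood at 7547 and 12720.1 CPM. Of 9 measured myelin genes 1 was higher and none lower, with Mbp, myelin basic protein, at 4510.2 and 4144 CPM. Erythroid markers in Schwann cells summed to 539.9 and 5423 CPM, and only 3 of the 35 P301S neg cells had male transcripts, with 62.0% of genes apart by 1.5-fold between the P301S neg mice.

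Neutrophils carried granule genes at like levels in both libraries. Of 14 measured granule genes 2 were higher and none lower, with a median log2 ratio of 0.05, and backgrounds of 2.22% and 8.27%. S100a8, a subunit of calprotectin, which fills the cytoplasm, stood at 130117 and 128827 CPM, and Ltf, lactoferrin of the secondary granules, at 8135 and 8980.2 CPM. These genes, like Cxcr2 and Csf3r below, also served as markers of the type. Cxcl2, a chemokine that draws further neutrophils, stood at 395 CPM (371 to 421) and 851 CPM (815 to 888), 2.15-fold higher (1.995 to 2.33), with 206 and 264 CPM in female and male P301S neg cells but only 389 CPM in the library labelled CD8 KO. Cxcr2, the receptor by which mature neutrophils leave the marrow, was lower at 397 and 256 CPM, as was Csf3r, the receptor for G-CSF, at 278 and 183 CPM. The cluster of mature cells led by Retnlg and Il1b held 49.7% of P301S neg and 38.4% of P301S hom neutrophils. Among neutrophils with female transcripts it held 17.0% and 18.0%, and among male P301S neg ones 48.4%. Female P301S neg neutrophils, only 53 cells, were lower again at 144 CPM for Cxcr2. Between female and male P301S neg neutrophils 41.2% of genes differed 1.5-fold, a comparison of cells in unlike proportions of that cluster.

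Granulocyte precursors, with 58 and 71 cells, were named by primary granule genes, so the presence of these genes was set by the naming. Of these markers, Mpo, myeloperoxidase, stood at 2381 and 2509 CPM and Elane, neutrophil elastase, at 6649.6 and 8283 CPM. Il1b, an inflammatory cytokine, stood at 325 and 147 CPM, Tnf at 66.4 and 20.8 CPM, and Ifi27l2a, an interferon-induced gene, at 121 and 251 CPM. Of 4835 measured genes 3.74% were higher and 4.76% lower.

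Monocytes, which can turn into tissue macrophages, numbered 131 and 111. Division genes were higher, with 6 of 13 measured genes called against a background of 4.41%, but 1 against both, and the median log2 ratio was 2.35 against female and -0.04 against male P301S neg cells. Birc5, which guards chromosome separation, stood at 21.5 and 66.6 CPM on 6 and 15 cells. Gpr171, a G protein-coupled receptor of leukocytes, stood at 21.5 CPM (13.3 to 32.8) and 90.04 CPM (70.1 to 114), with 85.7 and 83.7 CPM in the other homozygous libraries. Treml4, a receptor of patrolling monocytes, stood at 42.9 and 15.7 CPM. MHC class II genes were near equal as a list, with Cd74 at 3737 and 4485 CPM, but the P301S neg mice differed at 5762 CPM in female and 1329 CPM in male cells. The finer clustering named only 86 P301S neg and 75 P301S hom cells monocytes. It named 40 and 44 cells dendritic in place of 20 and 19, with Cd74 among the leading genes of their cluster. The part of dendritic cells in the monocyte values was not tested. Neutrophil markers summed to 10749.9 and 3188 CPM in monocytes.

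B cells, the antibody-making lymphocytes, carried more MHC class II and less division RNA in the P301S hom library. Of 6 class II genes 5 were higher, all of them against both, where 1.59% of measured genes were and 2.46% were higher against all. Cd74 stood at 4863 CPM (4746 to 4982) and 7743 CPM (7531 to 7959), with 4163 and 4346 CPM in female and male P301S neg cells and 9566 and 11144 CPM in the other homozygous libraries. H2-Eb1, a class II chain, stood at 541 and 1034 CPM, with 1201 and 1200.4 CPM in the others. The homozygous libraries were above both P301S neg mice for both genes.

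The lower side of B cells was broad, with 36.0% of 4474 measured genes lower, 18.3% against both, and a median log2 ratio over all genes of -0.46. Of 17 division genes 9 were lower, 7 against both, a share above that background. Mki67, a marker of dividing cells, stood at 311 and 114 CPM, with 237 and 532 CPM in female and male P301S neg cells. Igll1, part of the surrogate light chain of pre-B cells, stood at 269.7 and 129.6 CPM, and Rag1, of antigen receptor assembly, at 83.7 and 53.4 CPM. The clusters of the type differed in weight: the one led by Vpreb3, a gene of developing B cells, held 60.7% of P301S neg and 36.2% of P301S hom B cells, and the one led by light chain and antibody genes held 39.3% and 63.8%. Values within the type therefore compare cells in unlike proportions of these clusters. Jchain, the joining chain of secreted antibody, stood at 5434 and 24408 CPM from 8 and 14 cells, and Slpi had 72.000% of its P301S hom UMIs in 1 cell, and both ratios turned to lower at a finer clustering. Erythroid markers in B cells summed to 466 and 15612 CPM.

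T and NK cells of the P301S hom library carried more RNA of tissue residency and less of circulation, and the NK cells less of the killing genes Gzma and Prf1. Of 15 measured genes of the list 4 were higher and 8 lower, 3 and 4 against both, with backgrounds of 11.8% and 8.25% against all and 5.10% and 2.35% against both. Cxcr6 (ENSMUSG00000048521, chr9:123806475-123811760), a chemokine receptor of T cells that stay in tissue, stood at 151 CPM (103 to 213) and 469.9 CPM (388 to 564), 3.11-fold higher (2.09 to 4.76), and came from 17 of 46 and 42 of 68 cells. The other homozygous libraries stood at 483 and 307 CPM, and female and male P301S neg cells at 140.0 and 83.97 CPM. Values of the single P301S neg mice rest on only 19 female and 8 male cells of this type. Between those cells 42.1% of measured genes differed 1.5-fold. Rgs1, a brake on chemokine receptors, stood at 245 and 535 CPM, and Gzmk, granzyme K, at 70.8 and 158 CPM on 15 and 39 UMIs.

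Genes of recirculation were lower: S1pr1, the exit receptor, at 208 and 68.9 CPM, and Lef1, a factor of naive T cells, at 222 and 85.1 CPM. Gzma (ENSMUSG00000023132, chr13:113093825-113100981), granzyme A, which NK cells hold at high level and which served as a marker of the type, stood at 2226 CPM (2030.0 to 2437) and 247 CPM (189 to 317), with 948 and 4562 CPM in female and male P301S neg cells, and Prf1, perforin, at 241 and 52.7 CPM. Klra4, a receptor of NK cells, was at 269 and 40.5 CPM, with all P301S hom UMIs in 1 cell. A finer clustering, read after these values were seen, put 18 of 46 P301S neg and 23 of 68 P301S hom cells with NK cells, or 39.1% and 33.8%. Among the NK cells alone Gzma stood at 4805 CPM (460 UMIs) in the P301S neg and 637 CPM (56 UMIs) in the P301S hom library, and Prf1 at 501 and 79.6 CPM. Among the T cells alone Cxcr6 stood at 206 and 522 CPM and Lef1 at 292 and 62.9 CPM. Prf1 in those T cells had 3 and 6 UMIs. Ccl5, a chemokine of effector cells, stood at 6415 and 5565 CPM over the whole type, with opposite directions in its parts. It stood at 2649 and 4586 CPM among the T cells and at 10988 and 7335 CPM among the NK cells. Tmem176b, a membrane protein, stood at 37.7 and 271 CPM and its neighbour Tmem176a at 18.9 and 251 CPM. Endothelial markers in this type summed to 2052 and 122 CPM.

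Erythroid cells had many genes called against all P301S neg cells and few against each mouse. Of 4870 measured genes 29.2% were higher and 2.59% lower against all cells, but 0.554% and 1.60% against both. Division genes had 9 of 17 members higher and 0 against both, and their median log2 ratio was 0.59 against all, -0.14 against female and -0.15 against male cells. Mki67 stood at 696 and 679 CPM in female and male P301S neg cells and 614 CPM in P301S hom cells, while all P301S neg cells together stood at 418 CPM, a sum that also holds the cells placed in neither sex. MHC class I genes were lower in 7 of 13 measured members, all of them against both. H2-K1 stood at 199 CPM (185 to 213) in P301S neg and 96.6 CPM (83.7 to 111) in P301S hom erythroid cells, with 89.4 and 96.9 CPM in the other homozygous libraries. Endothelial markers summed to 399.8 and 79.7 CPM in erythroid cells, and the class I median was -0.40 without cells of mixed markers. Cxcr4, the receptor that keeps precursors in marrow, stood at 24.9 and 15.5 CPM.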

How the data were processed

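The deposited files hold raw UMI counts per gene and cell from 10x Genomics 3' libraries, made by the authors with Cell Ranger 6.0.1 per the file headers and with mm10 per the submitters' processing notes; the annotation and cell calling settings are not given in the sources used here. All 32285 genes of the table were used. The members, gene lists and motifs were chosen with earlier results of these data known, and the mixed-cell and single-mouse comparisons were added after seeing the data.

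Doublets were called per library with scrublet (expected rate 6%) and removed. The members of all 4 libraries were clustered together for naming with scanpy 1.11.5 (2000 variable genes, 30 components, 15 neighbours, Leiden resolution 1.0; 2.0 for smooth muscle and as an alternative). A cluster was named from at least 3 markers, each found in at least 10% of its cells. For the mixed call, each marker's level was scaled to the cluster where that marker was highest. A cluster was set aside as mixed where the median for a type of another family passed 0.25, with at least 3 of its markers found. This limit was set after seeing the data. Cells with female or male transcripts were told apart by UMIs of Xist or of Y-linked genes.

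The UMIs of each type's cells were added per gene and scaled to CPM. With 1 library a group no test across samples was possible, so no p-value is given. Intervals are exact Poisson for CPM, Clopper-Pearson for shares and conditional binomial for ratios at 95%, computed with scipy 1.17.1; they cover counting error only. Lists are given by counts and medians of log2 ratios of CPM with nothing added, and zero levels as bounds from a floor of 3 UMIs. Only the ranking of the genes named by rule used ratios with 5 CPM added to both levels. Cells of mixed markers were those with at least 3 UMIs of Cldn5 and Flt1 outside endothelium, or at least 1% of UMIs from S100a8 and S100a9 outside the neutrophil lineage and monocytes. The subtraction alternative removes, from each type, the C1q-high profile scaled by its Apoe level.

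Genes were named by rule: the 4 highest and 4 lowest ratios in types of 100 or more cells on each side, and 2 each from 30 to 99 cells, among genes of at least 50 UMIs in both together and 20 CPM in the higher library, past 1.5-fold in female cells too, with an expected free microglial share under 25%, and without the type's markers and genes 10 times higher in another type of at least 50 cells. List members beside these were up to 4 farthest from 0; other genes cited were chosen after their values were seen. Promoters are from the RefSeq table for GRCm38.p6; 22 of 24 genes taken by rule matched. Gene coordinates are from GENCODE's annotation of the same build. The code was tested on simulated data.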

Additional observations from a re-analysis of the deposited data

How the results depend on the processing

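No paired analysis was possible because each group was 1 library. Comparisons with only the female or only the male P301S neg cells, and without cells of mixed markers, were added after seeing the data. Complement limits of 0.2% and 1% left 6 of 6 shares, 50 of 50 list medians and 90 of 90 named genes the same within the error set for each kind, and keeping doublets did so for 6, 50 and 88. Where a value moved or turned below, the cause was not tested.

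With only female cells in both libraries, the ratio of endothelial shares went from 0.885 to 0.780, of the neutrophil lineage from 1.58 to 2.49 and of erythroid cells from 0.912 to 1.43. Without marrow and blood types other than T and NK cells the endothelial ratio was 0.994. With only female cells, median log2 ratios were -0.16 for endothelial interferon gamma genes, 0.37 for arterial ones, and, for heat shock genes, 0.34 in endothelial, 0.24 in arterial, 0.35 in pericyte, 0.17 in ependymal and 0.32 in monocyte-like cells, and 280 lower neutrophil genes. Against female P301S neg cells the heat shock medians were 0.34, 0.23, 0.34, 0.16 and 0.44 in the same order, the interferon gamma medians -0.12 in endothelial and 0.35 in arterial cells, and erythroid division genes -0.14. All of these heat shock medians and the arterial interferon gamma median were below 0 against all P301S neg cells. Against male cells the interferon gamma median was -1.87, the heat shock median -1.39 in endothelium, and erythroid division genes -0.15. Of named genes, Cyp2d22 and Slc43a3 in Schwann cells turned from -1.61 and -1.22 to 0.19 and 0.91 against male cells, and Myadm in neutrophils from -1.30 to 0.28 against female cells.

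The number of endothelial genes called higher was 259, and 442 at 20 UMIs, 1518 with no minimum, 442 against male cells and 6552 after subtraction. The number called lower was 524, and 840, 1616, 347 and 142 in the same order. Subtraction removes endothelial Apoe of its own, since Apoe there was 76.6% of the C1q-high level in the P301S neg and 2.39% in the P301S hom library. Subtraction gave medians of 4.64 for the reactive astrocyte list, 1.48 for endothelial glucocorticoid genes, 0.55, 0.70 and 0.20 for heat shock genes in endothelial, ependymal and monocyte-like cells, and 2.11 for venous MHC class II genes, which stood at -1.69. Neutrophil genes called higher numbered 118, and 187 after centring, 329 at 20 UMIs, 993 with no minimum, 547 against female and 272 against male cells. Lower ones numbered 439, and 970 at 20 UMIs, 2641 with no minimum and 705 against female cells. The reactive astrocyte median was 2.61 at 20 UMIs and 5.22 without cells of mixed markers. At resolution 2.0, Fabp4 in arterial cells stood at -0.55 (from 2.24), H2afx in monocytes at -0.26 (from 1.62), and Slpi and Jchain in B cells at -2.33 and -5.69 (from 2.33 and 2.17). Of 90 named genes, 83 were called at that resolution, 84 without cells of mixed markers, 84 against female and 83 against male cells. With 1 library a group, the spread between mice is unknown, and types of under 100 cells give wide intervals.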
